A study of Mus musculus and Rattus norvegicus with 85 samples.

Results

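The lungs of 5 mice that had breathed 90 ppm chloroprene for 5 exposure days were set against the lungs of 5 mice that had breathed 13 ppm for the same 5 days. These 10 arrays of the 85 in the series were chosen by the concentration, duration and animal number in the sample titles: animals 165 to 169 at 90 ppm, and animals 149, 151, 152, 153 and 154 at 13 ppm. All were female B6C3F1/Crl mice, hybrids with no transgene or deletion in the labels, aged 10 weeks when exposure began. They were exposed whole-body for 6 hours a day with air as the vehicle. Both groups received the agent, so the comparison is of a high with a lower exposure and not of exposure with air. Mice at 0, 0.3 and 2 ppm after 5 days, and mice at 90 and 13 ppm after 15 exposure days, are used below to show where the levels stand; there were 5 animals in each group. RNA came from the whole right lung and was hybridised to Affymetrix arrays, and the values are the authors' log2 signals, on which a difference of 1 is a doubling. The rat arrays of the series were not used here.

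Chloroprene is the chlorinated butadiene from which neoprene rubber is made. In lung and liver, cytochrome P450 enzymes, CYP2E1 and in mouse lung CYP2F2 among them, oxidise it to reactive epoxides, which epoxide hydrolase and conjugation with glutathione remove. The transcription factor NRF2 is held in check by KEAP1 until electrophiles modify that protein. It then binds antioxidant response elements and raises the genes of glutathione synthesis, quinone and carbonyl reduction and NADPH supply. Club cells, the secretory cells of the bronchioles, hold most of the P450 activity of the mouse airway and lie beside multiciliated cells.

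Both groups carried lung markers at the top of the scale, whose highest value was 15.3. Sftpc, the surfactant protein of alveolar type 2 cells, lay between 15.22 and 15.3 in all 10 animals, and Ager, a marker of alveolar type 1 cells, between 14.86 and 15.05. RNA integrity averaged 9.02 ± 0.41 at 90 ppm and 8.78 ± 0.19 at 13 ppm (SD, n = 5 each), with an exact two-sided permutation p of 0.286 (smallest possible 0.00794). Adipose tissue markers averaged 8.96 to 9.46 per animal at 90 ppm and 8.38 to 10.8 at 13 ppm, with Adipoq at 11.36 in animal 154. Mesothelial markers averaged 9.68 to 10.1 at 90 ppm and 8.37 to 10.2 at 13 ppm, with Msln at 8.06 in animal 154. Cardiac muscle markers averaged 9.18 to 9.92 at 90 ppm and 8.51 to 9.63 at 13 ppm, with 11 of 13 changes above 0 (median 0.28). No member of these lists passed the test. Animal 165 at 90 ppm stood apart from its group, with a median correlation of 0.966 to its group mates over all genes, against 0.988 to 0.993 for the other 4. Animals 167 at 90 ppm and 154 at 13 ppm had low signal for the poly-A RNA spiked in before labelling, at 6.61 and 6.98 against 9.13 to 10.0 in the other 8.

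After 5 days, 660 of 13796 genes (4.78%) differed between 90 and 13 ppm at an adjusted p below 0.05, by limma with Benjamini-Hochberg adjustment. Of these, 342 rose (2.48%) and 318 fell (2.31%) at 90 ppm, and 150 changed by at least 1.5-fold, 67 of them upward and 83 downward. The median change over all genes was 0.01. In 749 genes (5.43%) the 5 values at 90 ppm did not overlap the 5 at 13 ppm, with 439 (3.18%) wholly above and 310 (2.25%) wholly below. Of the 660 called genes, 422 were among them. With only the 10 compared arrays in the fit, 275 genes were called. The count of calls was 379 without animal 152, 375 of them among the 660, and 524 without animal 165, 432 of them among the 660. The falls numbered 199 without animal 151, 150 without animal 152 and 210 without animal 168. Without the 2 animals with low spike signal, 599 genes were called, 508 of them among the 660.

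The 12 largest rises were in Myrip, Doc2b, Fkbp5, Aldh3a1, Rbfox3, Ccna1, Fam107a, Fst, Mt2, Klhl29, Ces1g and Galnt15, and all but Fst had every 90 ppm animal above every 13 ppm animal. Such separation was seen in 3.18% of all genes, and choosing genes by their change in these animals favours it. Values are given in the order of animals 165 to 169 at 90 ppm and 149, 151, 152, 153 and 154 at 13 ppm. Myrip, an adaptor that ties Rab27-bearing secretory granules to myosin and actin, had 11.01, 10.91, 10.83, 10.73 and 10.29 at 90 ppm, against 8.72, 9.0, 8.88, 9.0 and 10.02 at 13 ppm. The groups did not overlap, and animal 154 lay well above its 4 group mates. Myrip was 3.10-fold higher (log2 change 1.63 ± 0.20, SE; adjusted p = 9.42e-07). Doc2b, a calcium sensor of vesicle release, had 7.22, 7.31, 7.05, 6.82 and 6.26 at 90 ppm, against 5.34, 5.46, 4.96, 5.33 and 5.89 at 13 ppm. All its 13 ppm values lie below the signal limit used to filter genes (6.67), so that Doc2b entered the test through the groups in which it is high (log2 change 1.53 ± 0.19; adjusted p = 9.42e-07).

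Rbfox3, the splicing factor known as NeuN and used as a marker of neurons, had 9.72, 9.46, 10.01, 9.69 and 9.77 at 90 ppm, against 8.36, 8.22, 8.11, 8.56 and 8.90 at 13 ppm. It was 2.46-fold higher (log2 change 1.30 ± 0.16; adjusted p = 9.42e-07) with a gap between the groups. Fst, which codes for the activin-binding protein follistatin, had 8.44, 9.19, 8.98, 8.30 and 8.26 at 90 ppm, against 7.11, 7.79, 6.99, 7.44 and 8.30 at 13 ppm. Animal 154 lay above the lowest 90 ppm animal, and the change was 1.11 ± 0.20 (adjusted p = 0.000403). Galnt15, of the family of transferases that start mucin-type O-glycans, had 9.05, 9.21, 9.09, 8.65 and 8.55 at 90 ppm, against 7.90, 7.99, 7.97, 7.85 and 7.96 at 13 ppm. The 13 ppm mice were within 0.14 of each other, and the change was 0.97 ± 0.13 (adjusted p = 4.92e-06).

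Among the 12 largest rises, animal 154 had the highest value of the 13 ppm mice in 10, animal 149 the lowest in 7, and animal 169 the lowest of the 90 ppm mice in 8. Only 4 of the 12 (Aldh3a1, Ces1g, Mt2 and Ccna1) were also past the threshold at 13 against 0 ppm, where 179 of all genes were called (1.3%), 161 higher (1.17%) and 18 lower (0.13%) at 13 ppm. That comparison shares the 13 ppm animals with the one described here, so its changes are given side by side and not tested against it. Rbfox3 differed by -0.01 between 13 and 0 ppm (adjusted p = 1.00), Fst by 0.01 (adjusted p = 0.99), Galnt15 by -0.08 (adjusted p = 0.90) and Klhl29 by 0.16 (adjusted p = 0.80).

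**Figure D1:**
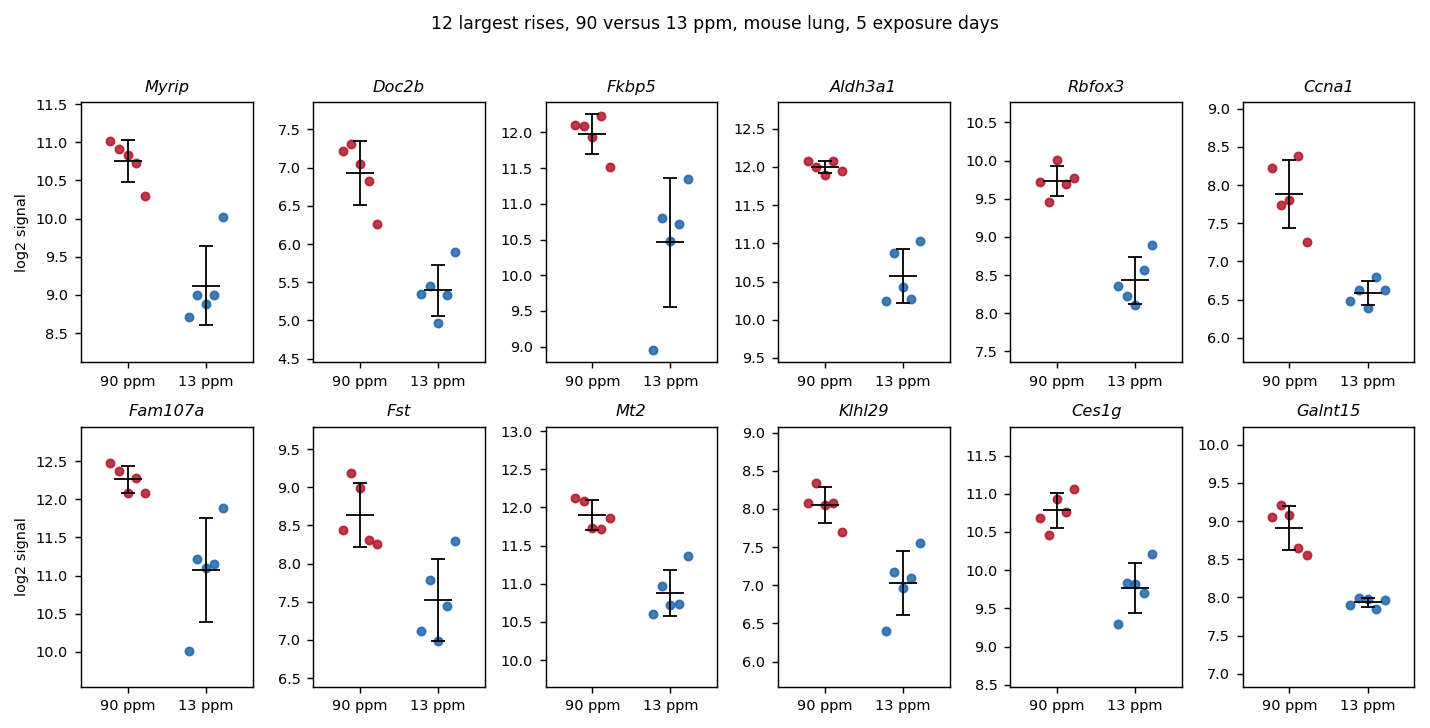
log2 signal of the 12 genes with the largest rises, in each of 5 mice at 90 ppm (red, left) and 5 mice at 13 ppm (blue, right); horizontal marks are group means and bars the SD. Animals 165 to 169 and animals 149 to 154 run from left to right within a group. Only in Fst did a 13 ppm animal (154) lie above the lowest 90 ppm animal. The genes were chosen by their change in these animals, which favours separation.

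Part of the measured detoxification genes rose at 90 ppm. Of 24 measured NRF2 targets, 12 rose (50%, beside 2.48% of all genes) and none fell. The median change was 0.33 against 0.01 over all genes, and 23 of the 24 changes were above 0. Aldh3a1, an aldehyde dehydrogenase, had 12.07, 12, 11.89, 12.08 and 11.95 at 90 ppm, against 10.24, 10.87, 10.43, 10.28 and 11.03 at 13 ppm. The 90 ppm mice lay close together and far above the others (2.69-fold, log2 change 1.43 ± 0.17; adjusted p = 9.42e-07). Gclm, the modifier subunit of the enzyme that makes the glutathione precursor, had 11.53, 11.51, 11.40, 11.68 and 11.36 at 90 ppm, against 10.90, 11.20, 11.06, 10.65 and 11.10 at 13 ppm. It rose 1.43-fold (log2 change 0.52 ± 0.09; adjusted p = 0.000403). A second Gclm probe set changed by 0.33 (adjusted p = 0.494). Nqo1, the quinone reductase often read as a gauge of NRF2, had 9.61, 9.58, 9.54, 9.88 and 9.70 at 90 ppm, against 8.86, 9.32, 9.38, 8.79 and 9.22 at 13 ppm. The groups did not overlap, and the change was 0.55 ± 0.13 (adjusted p = 0.00737).

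Of the carbonyl reductases, Cbr1 rose by 0.45 ± 0.07 (adjusted p = 4.90e-05) and Cbr3 by 0.66 ± 0.12 (adjusted p = 0.000405). Ephx1, the microsomal epoxide hydrolase that opens epoxides with water, averaged 13.20 ± 0.10 at 90 ppm and 12.87 ± 0.04 at 13 ppm (SD, n = 5 each), a rise of 0.33 ± 0.05 (adjusted p = 9.75e-05). The thioredoxin reductase Txnrd1, sulfiredoxin Srxn1, the growth inhibitor Osgin1, the peroxidase Gpx2, glutathione reductase Gsr and the pentose phosphate enzyme Pgd made up the rest of the 12. Members of the list did not all move: Gclc, the catalytic partner of Gclm, changed by 0.34 ± 0.13 (adjusted p = 0.146), and its groups overlapped. Hmox1, heme oxygenase, averaged 10.08 ± 0.15 at 90 ppm and 10.29 ± 0.28 at 13 ppm, a difference of -0.20 ± 0.15 (adjusted p = 0.50).

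Antioxidant response elements are read here as TGACNNNGC on either strand; such letters can overlap the related AP-1 site, which was not searched. The letters occurred in 12.4% of 32851 RefSeq promoter windows (build GRCm38.p6, from 250 bases before to 50 after a start). Of the 17 listed NRF2 targets with a window, 7 held a match, Gclm among them, and 4 of the 10 that rose did. Among tested genes with a window the share was 21.1% of 275 that rose, 17.2% of 250 that fell and 16.8% of all 11084. Gclm and the glutathione transferase Gsta3 are printed because both rose and each has a single match; a match is only a run of letters. The Gclm stretch is chr3:122245393-122245461 on the plus strand, where the capitals show the reverse complement of the motif, and the Gsta3 stretch is chr1:21240434-21240502 on the plus strand.
Gclm: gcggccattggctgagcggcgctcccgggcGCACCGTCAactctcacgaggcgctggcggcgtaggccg
Gsta3: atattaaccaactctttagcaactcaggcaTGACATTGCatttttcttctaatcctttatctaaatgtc

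Glutathione transferases attach glutathione to electrophiles. Of 29 genes of glutathione synthesis and transfer, 8 rose (27.6%, beside 2.48% of all genes) and none fell. The median was 0.13, and 24 changes were above 0. With only the 10 compared arrays, 4 rose. Gsta2 had 11.60, 11.56, 11.78, 11.50 and 11.85 at 90 ppm, against 10.55, 11.05, 11.02, 10.71 and 11.13 at 13 ppm. It changed by 0.76 ± 0.15 (adjusted p = 0.000966), and Gsta3 by 0.69 ± 0.13 (adjusted p = 0.000804), both without overlap. Gsto1 rose by 0.52 ± 0.10 (adjusted p = 0.000804) and Gstm1 by 0.31 ± 0.05 (adjusted p = 9.75e-05), and Gsta4, Gstm3, Gstp1 and glutathione synthetase Gss were the other 4. Some transferases of one class resemble each other closely in sequence, so probe sets of Gsta2, of Gstm1 and of their closest relatives may share signal.

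Of 33 first-phase enzymes, 7 rose and 1 fell (24.2% called, beside 4.78% of all genes), with a median of 0.18. With only the 10 compared arrays, 3 rose. Ces1g, a carboxylesterase, had 10.69, 10.47, 10.93, 10.76 and 11.06 at 90 ppm, against 9.29, 9.83, 9.82, 9.70 and 10.21 at 13 ppm. It rose 2.01-fold (log2 change 1.01 ± 0.18; adjusted p = 0.000255) without overlap. The P450 genes Cyp2d22 (0.53 ± 0.09; adjusted p = 0.000260) and Cyp4b1 (0.20 ± 0.05; adjusted p = 0.00671), the aldehyde dehydrogenase Aldh2 (0.29 ± 0.06; adjusted p = 0.00246), Ces1d, the aldehyde oxidase Aox1 and the flavin monooxygenase Fmo1 rose as well. Other Aldh2 probe sets changed by 0.24 and 0.19, with adjusted p of 0.680 and 0.617. The P450 Cyp2j9 fell by 0.36 (adjusted p = 0.023), a call that ended without any one of animals 151, 152, 168 and 169.

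The P450 genes that open the metabolism of chloroprene did not pass the test. Cyp2e1 had 10.28, 10.73, 9.98, 10.25 and 10.08 at 90 ppm, against 9.67, 9.91, 8.73, 9.25 and 10.95 at 13 ppm. The 13 ppm values straddled those at 90 ppm, and the difference was 0.56 ± 0.29 (adjusted p = 0.298). Cyp2f2 averaged 14.92 ± 0.04 at 90 ppm and 14.89 ± 0.04 at 13 ppm, a difference of 0.03 ± 0.04 (adjusted p = 0.653), near the top of the scale.

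Of 15 genes of drug efflux and of heme, iron or metal handling, 6 rose (40%, beside 2.48% of all genes) and none fell. The metal-binding Mt2 had 12.13, 12.08, 11.73, 11.72 and 11.86 at 90 ppm, against 10.60, 10.97, 10.72, 10.74 and 11.36 at 13 ppm, and rose 2.04-fold (log2 change 1.03 ± 0.15; adjusted p = 1.97e-05). Its relative Mt1 rose by 0.73 ± 0.14 (adjusted p = 0.000557), but a second Mt1 probe set changed by -0.03 (adjusted p = 0.945). Hemopexin Hpx, which binds free heme, rose by 0.66 ± 0.11 (adjusted p = 0.000138), and the efflux pump Abcg2 by 0.41 ± 0.10 (adjusted p = 0.00757) with overlapping groups. The biliverdin reductase Blvrb and the iron exporter Slc40a1 were the remaining rises.

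Many detoxification genes were already higher at 13 than at 0 ppm. Between 13 and 0 ppm, 17 of the 24 NRF2 targets were past the threshold upward (median 0.53), beside 1.17% of all genes, and Nqo1 differed by 1.62, Gclm by 1.04, Cbr3 by 1.73 and Ces1g by 2.05. Between 90 and 13 ppm, the same genes differed by 0.55, 0.52, 0.66 and 1.01. Cyp2d22, Aldh2 and Cyp4b1 differed by -0.15, 0.11 and 0.03 between 13 and 0 ppm, none past the threshold. Aldh3a1 averaged 8.86, 9.25, 9.91, 10.57 and 12 at 0, 0.3, 2, 13 and 90 ppm.

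**Figure D2:**
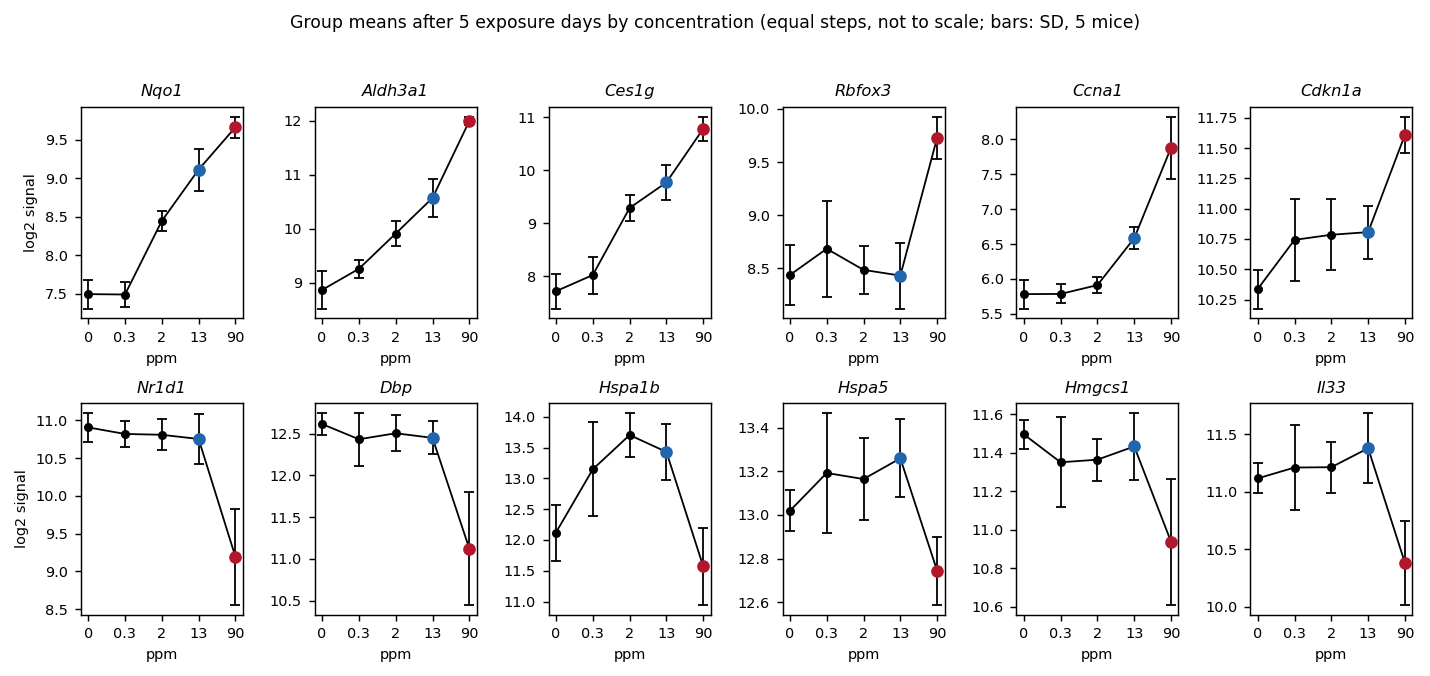
Mean log2 signal of 12 genes after 5 exposure days at 0, 0.3, 2, 13 and 90 ppm (horizontal axis in equal steps), with the SD of 5 mice per group as bars; 13 ppm is marked in blue and 90 ppm in red. Nqo1, Aldh3a1 and Ces1g climb over several steps, Rbfox3 stays between 8.43 and 8.68 up to 13 ppm and reaches 9.73 at 90 ppm, Nr1d1 and Dbp drop at 90 ppm, and Hspa1b is lowest at 90 ppm.

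Cdkn1a, the p53-induced inhibitor of cyclin-dependent kinases, had 11.66, 11.51, 11.77, 11.70 and 11.40 at 90 ppm, against 10.45, 10.82, 10.81, 11.02 and 10.93 at 13 ppm. It rose 1.74-fold (log2 change 0.80 ± 0.17; adjusted p = 0.00168) without overlap. Of 26 p53 targets it was 1 of only 2 that passed (7.69%, beside 4.78% of all genes). The other was the spindle gene Psrc1 (0.33 ± 0.10; adjusted p = 0.034), which was lost without any one of animals 151, 152, 165 and 168. Quantile normalization and median centring each gave 4 members that rose. The ubiquitin ligase Mdm2 changed by 0.11 ± 0.10 (adjusted p = 0.56). None of 29 DNA repair genes and none of 40 replication and mitosis genes passed the test by limma, and no gene of either list reached an adjusted p below 0.089. Mki67, the proliferation marker, averaged 6.68 ± 0.41 at 90 ppm and 7.20 ± 0.39 at 13 ppm (difference -0.52 ± 0.24; adjusted p = 0.237).

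Multiciliated cells reuse some cell cycle genes to amplify their centrioles. Of 20 genes of multiciliogenesis, 6 rose (30%, beside 2.48% of all genes), none fell and 14 did not pass. With only the 10 compared arrays, 3 rose. Ccna1, a cyclin otherwise known from male germ cells, had 8.22, 7.73, 7.81, 8.38 and 7.25 at 90 ppm, against 6.48, 6.62, 6.39, 6.80 and 6.62 at 13 ppm. The groups did not overlap, and 4 of the 13 ppm values lie below the filter limit of 6.67, so that Ccna1 entered the test through the 90 ppm mice (log2 change 1.30 ± 0.15; adjusted p = 7.34e-07). Ccno, a cyclin-like protein needed for centriole amplification, had 9.48, 8.63, 8.89, 9.36 and 8.69 at 90 ppm, against 8.14, 8.35, 8.46, 8.13 and 8.30 at 13 ppm (0.73 ± 0.14; adjusted p = 0.000909). Animals 165 and 168 were the highest for both Ccna1 and Ccno. The centrosomal kinase Nek2 rose by 0.85 ± 0.14 (adjusted p = 0.000134) and the deuterosome organiser Deup1 by 0.65 ± 0.13 (adjusted p = 0.00127), and the transcription factor Myb and the centriole kinesin Kif24 also rose.

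The structural genes of finished cilia were mostly above 0 in change, with few calls. Of 39 motile cilia genes, 31 had changes above 0 with a median of 0.13, and 2 passed (5.13%, beside 4.78% of all genes): the dynein assembly factors Zmynd10 (0.51 ± 0.12; adjusted p = 0.0053) and Dnaaf1 (0.48 ± 0.13; adjusted p = 0.024), both with overlapping groups. The count lay between 1 (without animal 149, 152, 153 or 165) and 5 (without animal 151), and was 4 without animal 154 or 167 and 6 without both of these low-spike animals. It was 0 with only the 10 compared arrays and 5 with median centring. Foxj1, the regulator that drives ciliary genes, differed by 0.14 ± 0.21 (adjusted p = 0.76). Ccna1, Ccno and Deup1 were also past the threshold between 13 and 0 ppm, with changes of 0.80, 0.81 and 0.87, while Nek2 was not (0.30; adjusted p = 0.40).

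Several glucocorticoid-regulated genes rose. Fkbp5, a co-chaperone of the glucocorticoid receptor and a widely used readout of it, had 12.11, 12.10, 11.94, 12.23 and 11.52 at 90 ppm, against 8.95, 10.80, 10.48, 10.72 and 11.35 at 13 ppm. The groups did not overlap, and animal 149 was far below its group mates (log2 change 1.52 ± 0.42; adjusted p = 0.0265). Without animal 149 the change was 1.14 (adjusted p = 0.105), and the call also ended without animal 152, 165 or 168, with RNA integrity as a covariate, and with only the 10 compared arrays. Of 21 listed genes, 5 rose (23.8%, beside 2.48% of all genes) and none fell, with a median of 0.14. The sulfotransferase Sult1a1 (0.91 ± 0.16; adjusted p = 0.000194), the lipase inhibitor Angptl4 (0.73 ± 0.18; adjusted p = 0.0102), glutamine synthetase Glul (0.41 ± 0.10; adjusted p = 0.0121) and Mt2 were the other 4. The Glul call was lost with the mean of its probe sets (0.38, adjusted p = 0.093). A second Glul probe set changed by 0.35 (adjusted p = 0.400).

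Other classic members of that list did not pass. Tsc22d3 changed by 0.19 ± 0.19 (adjusted p = 0.63), Zbtb16 by 0.54 ± 0.53 (adjusted p = 0.63) and Per1 by -0.28 ± 0.21 (adjusted p = 0.51). Zbtb16 had 9.53 in animal 149 and 11.24 to 11.85 in the other 13 ppm mice. Fam107a, an actin-binding protein, likewise had 10.01 in animal 149 and 11.10 to 11.89 in its group mates, against 12.08 to 12.48 at 90 ppm (change 1.19 ± 0.32; adjusted p = 0.0213). Without animal 149 its change was 0.92 (adjusted p = 0.088), and without animal 165 it was 1.13 (adjusted p = 0.052).

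The 12 largest falls were in Hspa1b, Hspa1a, Nr1d1, Scn3a, Slc5a3, Dbp, Rasgrp3, Acoxl, Adgre4, Mndal, Thbs1 and Igkv9-120, and in all 12 every 90 ppm animal lay below every 13 ppm animal. Such separation was seen in 2.25% of all genes, and choosing genes by their change in these animals favours it. None of the 12 was past the threshold between 13 and 0 ppm, where few genes were called at all (1.3%). Scn3a, a sodium channel subunit, had 6.55, 7.87, 7.91, 7.51 and 6.99 at 90 ppm, against 8.82, 8.83, 8.91, 8.51 and 8.95 at 13 ppm (2.72-fold lower, log2 change -1.44 ± 0.23; adjusted p = 4.74e-05). Rasgrp3, an exchange factor that activates Ras, had 8.38, 9.42, 9.72, 9.38 and 9.63 at 90 ppm, against 10.55, 10.52, 10.67, 10.40 and 10.41 at 13 ppm (-1.20 ± 0.17; adjusted p = 7.10e-06). The 13 ppm mice were tightly grouped in both genes, and animal 165 had the lowest value of all in each, as it did in 7 of the 12 falls.

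Thbs1, the matrix protein thrombospondin 1, had 9.23, 9.88, 9.34, 9.03 and 9.29 at 90 ppm, against 9.88, 10.70, 10.71, 10.54 and 10.16 at 13 ppm (-1.04 ± 0.14; adjusted p = 4.58e-06). Its groups met at 9.88 in rounded values without crossing. Among 32 fibroblast and matrix genes, 3 passed (9.38%, beside 4.78% of all genes), Thbs1 being 1 of them. The matricellular Tnc fell by 0.90 ± 0.23 (adjusted p = 0.0154) and the microfibril protein Mfap2 rose by 0.43 ± 0.08 (adjusted p = 0.00102). Tnc was no longer called without animal 149, 152 or 169. Slc5a3, the inositol transporter that follows osmotic stress, fell by 1.36 ± 0.33 (adjusted p = 0.00834), and by 1.06 (adjusted p = 0.051) without animal 165. The immunoglobulin segment Igkv9-120 changed by -1.01 ± 0.24 (adjusted p = 0.00675), whereas another of its probe sets changed by -0.08 (adjusted p = 0.853), and without the low-spike pair the change was -0.73 (adjusted p = 0.092). The 90 ppm mean of Igkv9-120, 6.26, lies below the filter limit of 6.67, so the signal range limits the size of its change.

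**Figure D3:**
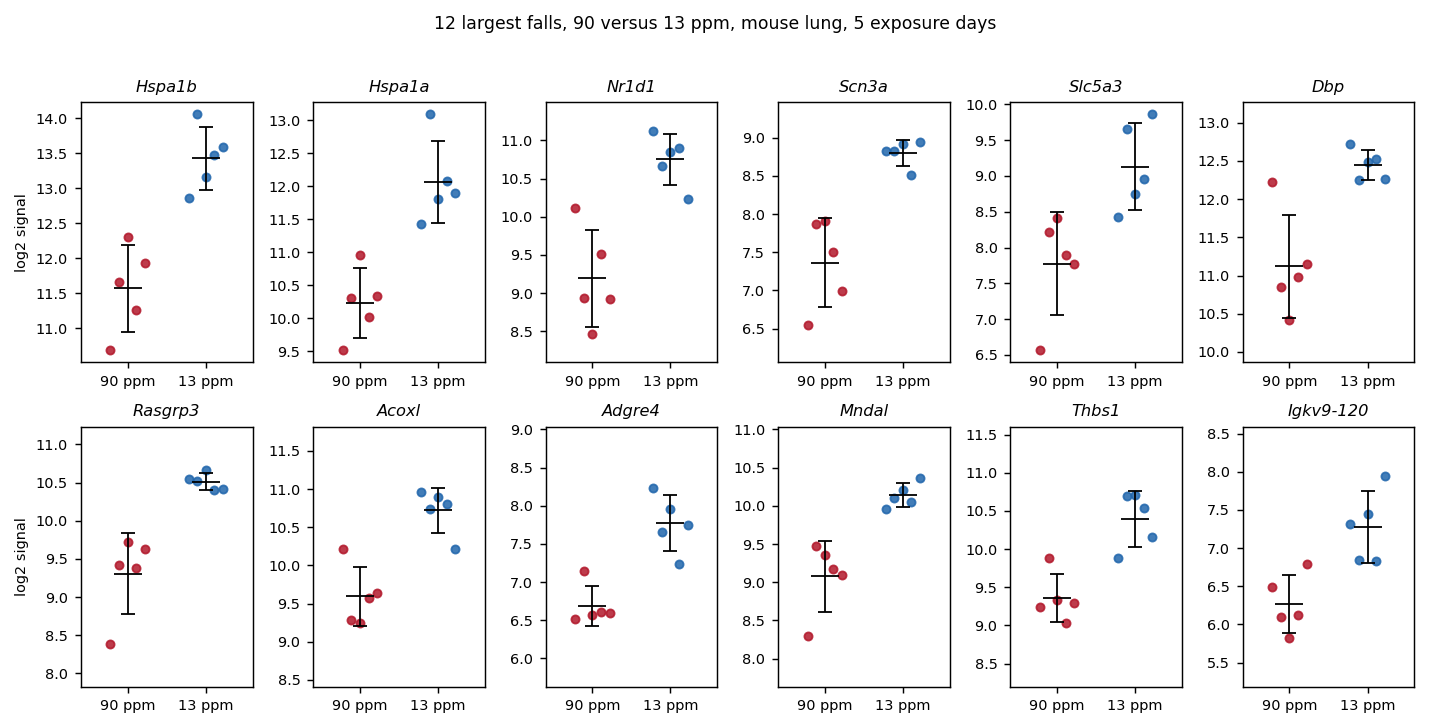
log2 signal of the 12 genes with the largest falls, in each of 5 mice at 90 ppm (red, left) and 5 mice at 13 ppm (blue, right); horizontal marks are group means and bars the SD, with animals 165 to 169 and 149 to 154 from left to right within a group. In all 12 genes every 90 ppm value lies below every 13 ppm value, and animal 165 is the lowest of all in 7 of them (Hspa1b, Hspa1a, Scn3a, Slc5a3, Rasgrp3, Adgre4 and Mndal). The genes were chosen by their change in these animals, which favours separation.

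The circadian clock runs on activators (Arntl, the protein BMAL1, with Clock) that switch on their own repressors (Per and Cry genes) and the Nr1d1 and Dbp genes. Nr1d1, which codes for the repressor REV-ERB alpha, had 10.12, 8.94, 8.47, 9.51 and 8.92 at 90 ppm, against 11.12, 10.67, 10.85, 10.90 and 10.23 at 13 ppm. It was 2.96-fold lower (log2 change -1.56 ± 0.22; adjusted p = 1.38e-05). Dbp, an activator of clock output, had 12.22, 10.84, 10.41, 10.98 and 11.15 at 90 ppm, against 12.72, 12.25, 12.49, 12.52 and 12.26 at 13 ppm (-1.33 ± 0.20; adjusted p = 2.79e-05). In both genes animal 165 was the 90 ppm mouse nearest to the 13 ppm group.

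Of 18 clock genes, 4 fell and 2 rose (33.3% called, beside 4.78% of all genes). Bhlhe40 fell by 0.43 ± 0.09 (adjusted p = 0.00289) and Ciart by 0.71 ± 0.20 (adjusted p = 0.028), both repressors within the clock. Cry1 had 10.22, 10.16, 10.02, 9.95 and 10.20 at 90 ppm, against 8.60, 9.18, 9.10, 9.18 and 9.79 at 13 ppm and rose by 0.94 ± 0.17 (adjusted p = 0.000360). Arntl, on which Nr1d1 acts as a repressor, rose by 0.54 ± 0.13 (adjusted p = 0.012). Per1, Per2 and Per3 changed by -0.28, 0.19 and -0.11, with adjusted p of 0.51, 0.70 and 0.49. Between 13 and 0 ppm, Nr1d1 differed by -0.15 and Dbp by -0.17, with adjusted p of 0.88 and 0.85.

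All 20 heat shock chaperones were lower at 90 than at 13 ppm, with a median of -0.46. Of them, 4 fell past the threshold (20%, beside 2.31% of all genes). Hspa1b had 10.68, 11.66, 12.31, 11.26 and 11.93 at 90 ppm, against 12.87, 14.06, 13.16, 13.47 and 13.60 at 13 ppm, and was 3.63-fold lower (log2 change -1.86 ± 0.43; adjusted p = 0.00531). Hspa1a had 9.51, 10.30, 10.96, 10.02 and 10.33 at 90 ppm, against 11.43, 13.09, 11.80, 12.08 and 11.89 at 13 ppm (-1.83 ± 0.46; adjusted p = 0.0120). The copies of HSP70 are near-identical, so their probe sets may read the same RNA. The mitochondrial co-chaperone Hspe1 (-0.52 ± 0.14; adjusted p = 0.0224) and the HSP90 co-chaperone Fkbp4 (-0.40 ± 0.11; adjusted p = 0.0249) were the other falls. The Hspe1 call was lost without animal 151, 154 or 168, without the low-spike pair and with only the 10 compared arrays. The Fkbp4 call was lost without animal 151, 152, 153 or 166, without the low-spike pair and with the mean of its probe sets (-0.16), and a second Fkbp4 probe set changed by -0.03 (adjusted p = 0.952). Hsph1, a nucleotide exchange factor for HSP70, differed by -1.22 ± 0.42 (adjusted p = 0.088), with 10.49 in animal 149 and 11.46 to 12.45 in its group mates.

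The number of falls in this list was 10 without animal 149, 1 without animal 151 and 2 without the 2 low-spike animals. At 13 against 0 ppm, 5 of the 20 chaperones were past the threshold upward (median 0.57), beside 1.17% of all genes. The levels did not follow concentration in 1 direction. Hspa1b averaged 12.12, 13.15, 13.71, 13.43 and 11.57 at 0, 0.3, 2, 13 and 90 ppm, so that 90 ppm against 0 ppm gave -0.55 (adjusted p = 0.44) and 13 ppm against 0 ppm gave 1.31 (adjusted p = 0.13). The heat shock element, read as the 8-letter palindrome GAANNTTC, occurred in 7.86% of promoter windows, in 11 of the 17 chaperones with a window and in all 4 that fell. Among tested genes with a window it stood in 11.2% of those that fell, 3.64% of those that rose and 6.98% of all. The stretches below are shown because these genes fell together: Hspa1a is chr17:34972223-34972290 and Hspa1b chr17:34959305-34959372, both on the minus strand, and Hspe1 is chr1:55088034-55088101 on the plus strand. Capitals mark the palindrome, and the Hspa1a and Hspa1b stretches have the same letters.
Hspa1a: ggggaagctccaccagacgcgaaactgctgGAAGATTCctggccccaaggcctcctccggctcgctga
Hspa1b: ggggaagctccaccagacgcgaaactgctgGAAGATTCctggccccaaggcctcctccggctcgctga
Hspe1: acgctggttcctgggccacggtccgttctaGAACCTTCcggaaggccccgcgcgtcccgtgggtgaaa

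Some chaperones of the endoplasmic reticulum, which fold secreted proteins, fell. Of 23 genes of endoplasmic reticulum stress, 4 fell (17.4%, beside 2.31% of all genes) and none rose. The median was -0.23, with 20 changes below 0. At 13 against 0 ppm, 3 of the 23 were past the threshold upward (median 0.17), beside 1.17% of all genes. Hspa5, the reticulum's HSP70 (BiP), had 12.47, 12.76, 12.87, 12.80 and 12.82 at 90 ppm, against 12.96, 13.32, 13.25, 13.33 and 13.43 at 13 ppm (-0.51 ± 0.11; adjusted p = 0.00303). Manf, a secreted stress-induced factor, had 11.38, 11.23, 11.29, 11.23 and 11.41 at 90 ppm, against 11.49, 11.95, 11.88, 11.96 and 12.03 at 13 ppm (-0.55 ± 0.10; adjusted p = 0.000557). The groups of both genes lay apart, although a second Hspa5 probe set changed by -0.02 (adjusted p = 0.951). The disulfide isomerase Pdia6 fell by 0.41 ± 0.08 (adjusted p = 0.00101) and Creld2 by 0.35 ± 0.11 (adjusted p = 0.042). A second Pdia6 probe set changed by -0.19 (adjusted p = 0.516). Creld2 overlapped between the groups and was not called without any one of animals 151, 152, 153, 154, 166, 167, 168 and 169.

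Promoters of such genes carry the endoplasmic reticulum stress element, a CCAAT box (itself a common promoter motif) followed at a fixed distance by CCACG. It was read as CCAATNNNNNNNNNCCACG on either strand and occurred in 0.119% of all windows, that is in 39 of 32851. Of the 22 listed genes with a window, 7 held it, including Hspa5, Pdia6 and Creld2, which are the 3 fallers with a window. Among tested genes with a window, 4 of 250 that fell (1.6%), 0 of 275 that rose and 18 of 11084 in all (0.162%) held it. The motifs were chosen with these changes known, and the counts are descriptions. The stretches are chr2:34771995-34772073 for Hspa5, chr12:17266461-17266539 for Pdia6 and chr15:88819490-88819568 for Creld2, all on the plus strand. Capitals mark the element, which Creld2 holds as the reverse complement.
Hspa5: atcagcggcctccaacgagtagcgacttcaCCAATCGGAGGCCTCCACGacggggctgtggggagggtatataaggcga
Pdia6: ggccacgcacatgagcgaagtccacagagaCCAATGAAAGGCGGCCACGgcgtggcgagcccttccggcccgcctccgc
Creld2: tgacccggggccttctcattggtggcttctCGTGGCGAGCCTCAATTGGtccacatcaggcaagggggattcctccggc

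Several cholesterol synthesis genes fell. The pathway runs from acetyl-CoA over mevalonate to sterols. Of its 20 tested genes, 6 fell (30%, beside 2.31% of all genes) and none rose. The median was -0.25, and 19 changes were below 0. Idi1, the isopentenyl diphosphate isomerase, had 8.39, 9.22, 9.20, 9.40 and 9.04 at 90 ppm, against 9.44, 10.39, 10.31, 9.82 and 9.99 at 13 ppm (-0.94 ± 0.17; adjusted p = 0.000478). Cyp51, the lanosterol demethylase, had 8.26, 8.38, 8.12, 8.31 and 8.07 at 90 ppm, against 8.68, 9.25, 8.95, 8.86 and 8.63 at 13 ppm (-0.64 ± 0.10; adjusted p = 2.98e-05). Neither gene overlapped between the groups. Sc5d (-0.49 ± 0.12; adjusted p = 0.00894) and Hmgcs1, which makes the mevalonate precursor (-0.50 ± 0.12; adjusted p = 0.00930), fell too, as did Msmo1 and Hsd17b7. Other Sc5d probe sets changed by -0.07 and -0.34, with adjusted p of 0.780 and 0.105. Without animal 165 Hmgcs1 changed by -0.36 (adjusted p = 0.060). Between 13 and 0 ppm the median of the list was -0.01, with none past the threshold.

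Most genes of the alveolar epithelium and of club cells did not pass the test. Among those that passed, most alveolar genes fell and all club cell genes rose. Of 21 alveolar type 2 genes, 5 fell, 1 rose and 15 did not pass, with a median of -0.10. The share that passed was 28.6%, beside 4.78% of all genes. Sftpc, the surfactant protein of type 2 cells, changed by 0.01 ± 0.03 (adjusted p = 0.92). Cxcl15, the chemokine lungkine of these cells, had 13.95, 14.05, 13.93, 14.02 and 13.95 at 90 ppm, against 14.42, 14.47, 14.44, 14.39 and 14.28 at 13 ppm (-0.42 ± 0.05; adjusted p = 1.12e-06). Il33, an alarmin that alveolar type 2 cells hold in their nuclei in the mouse, had 9.74, 10.62, 10.45, 10.50 and 10.59 at 90 ppm, against 10.97, 11.76, 11.53, 11.44 and 11.19 at 13 ppm (-1.0 ± 0.15; adjusted p = 4.20e-05). Both were fully separated between the groups. The calcium-binding S100g (-0.49 ± 0.10; adjusted p = 0.00116), the fatty acid carrier Fabp5 (-0.41 ± 0.08; adjusted p = 0.0018) and Egfl6 (-0.63 ± 0.15; adjusted p = 0.0090) fell, and the protease Ctsh rose by 0.30 ± 0.06 (adjusted p = 0.00126).

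Of 18 alveolar type 1 genes, Rtkn2 (-0.45 ± 0.09; adjusted p = 0.0010) and the water channel Aqp5 (-0.33 ± 0.08; adjusted p = 0.015) fell. The share that passed was 11.1%, beside 4.78% of all genes. The other 16 did not pass, and the median was -0.05. Ager changed by -0.01 ± 0.05 (adjusted p = 0.94). Of 23 club cell genes (median 0.11), 18 did not pass and none fell. The 5 that rose (21.7%, beside 2.48% of all genes) were Selenbp1 (0.37 ± 0.08; adjusted p = 0.00161), Cyp4b1, Ces1d, Gsta3 and Gsto1. The last 4 also stand in the metabolism lists. Scgb1a1, the defining secretory protein of club cells, averaged 15.16 ± 0.03 at 90 ppm and 15.18 ± 0.03 at 13 ppm (difference -0.03 ± 0.04; adjusted p = 0.731), close to the top of the scale. Among 25 endothelial genes, 2 passed (8%, beside 4.78% of all genes). The sialomucin Emcn fell by 0.49 ± 0.09 (adjusted p = 0.00028) and the adrenomedullin co-receptor Ramp2 rose by 0.32 (adjusted p = 0.0094). Adm, which codes for adrenomedullin and stood in the hypoxia and glycolysis list, rose by 0.63 ± 0.10 (adjusted p = 3.9e-05). It was the 1 rise among the 16 genes of that list (median 0.02), where 1 other gene fell. The fall was not called with quantile normalization or median centring.

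Few lymphocyte genes passed the test: 1 of 22 B and plasma cell genes (4.55%), 2 of 21 T cell genes (9.52%) and 0 of 14 natural killer genes, beside 4.78% of all genes. In bulk lung, fewer cells of a type and less RNA per cell cannot be told apart. All 14 natural killer and cytotoxic genes had changes below 0 (median -0.32), and none passed by limma; the smallest adjusted p was 0.055, for Klrd1 (-0.70 ± 0.22). Of 22 B and plasma cell genes, 20 had changes below 0 (median -0.39) and only Bank1, a B cell scaffold, fell (-0.82 ± 0.24; adjusted p = 0.036). Of 21 T cell genes, 18 had changes below 0 (median -0.24), and Cd3g, a chain of the T cell receptor complex, and Ms4a4b fell. Cd3g had 6.82, 6.95, 6.67, 6.65 and 7.24 at 90 ppm, against 8.07, 7.64, 8.06, 7.55 and 7.48 at 13 ppm (-0.89 ± 0.22; adjusted p = 0.010). In the B cell list the call was lost without animal 149, 152, 154, 165, 166 or 167, and 3 genes passed without animal 151. In the T cell list 1 gene passed without animal 149, 152 or 168, or without the low-spike pair.

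Myeloid genes were mixed, and 3 of 15 monocyte genes passed (20%, beside 4.78% of all genes). Of 15 monocyte genes, Plac8 had 10.36, 10.16, 9.89, 9.71 and 10.30 at 90 ppm, against 11.30, 10.63, 11.22, 10.92 and 10.57 at 13 ppm (-0.84 ± 0.22; adjusted p = 0.0139). Ms4a6b fell by 0.62 ± 0.15 (adjusted p = 0.0111), and Ace, which lung endothelium also makes, rose by 0.50 ± 0.15 (adjusted p = 0.0407). Plac8 was no longer called without animal 152 or 168, and Ace without any one of 8 of the 10 animals. A second Ace probe set changed by 0.50 (adjusted p = 0.343). Adgre4, a receptor of myeloid cells and among the largest falls, had 6.52, 7.14, 6.57, 6.61 and 6.59 at 90 ppm, against 8.23, 7.65, 7.96, 7.24 and 7.75 at 13 ppm (-1.08 ± 0.27; adjusted p = 0.0118), while another of its probe sets missed the threshold (-0.79; adjusted p = 0.055). Of 17 alveolar macrophage genes only Fabp1 fell (5.88%, beside 4.78% of all genes), with a change of -0.93 ± 0.14 (adjusted p = 3.9e-05). None of 11 neutrophil genes passed. The neutrophil alarmin S100a9 reached 13.02 in animal 152, against 9.73 to 10.92 in the other 13 ppm mice and 9.30 to 9.76 at 90 ppm.

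Of 30 interferon response genes, 5 fell (16.7%, beside 2.31% of all genes) and none rose (median -0.20): the antiviral Ifit1 (-0.67 ± 0.17; adjusted p = 0.0139), the guanylate-binding proteins Gbp2 (-0.44 ± 0.12; adjusted p = 0.0204), Gbp3 (-0.67 ± 0.19; adjusted p = 0.0266) and Gbp6 (-0.76 ± 0.22; adjusted p = 0.0366), and the RNA sensor Ddx58. All 5 overlapped between the groups, and animal 165 was the lowest of all 10 for Ifit1, Gbp2, Gbp3 and Gbp6. No member passed without animal 165, without animal 152 or with only the 10 compared arrays, 1 passed without animal 168, 2 without animal 169, and 3 without animal 149 or 153. Guanylate-binding proteins resemble each other in sequence and may share probes. Of 18 cytokines and chemokines, Il33, Cxcl12 (-0.46 ± 0.11; adjusted p = 0.00916) and Ccl17 (-0.38 ± 0.11; adjusted p = 0.0294) fell, and Ccl20 rose by 0.38 ± 0.12 (adjusted p = 0.0473). The share called was 22.2%, beside 4.78% of all genes. The Ccl17 call was lost without animal 151, 152, 153, 167 or 168 and without the low-spike pair. The Ccl20 call was lost without animal 149, 151, 152, 153, 166 or 169, without a filter and with RNA integrity as a covariate, and its 13 ppm mean of 6.59 lies below the filter limit of 6.67. With only the 10 compared arrays, 1 of the list fell and none rose. Other probe sets of Cxcl12 changed by -0.03 and -0.11, with adjusted p of 0.955 and 0.779.

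**Figure D4:**
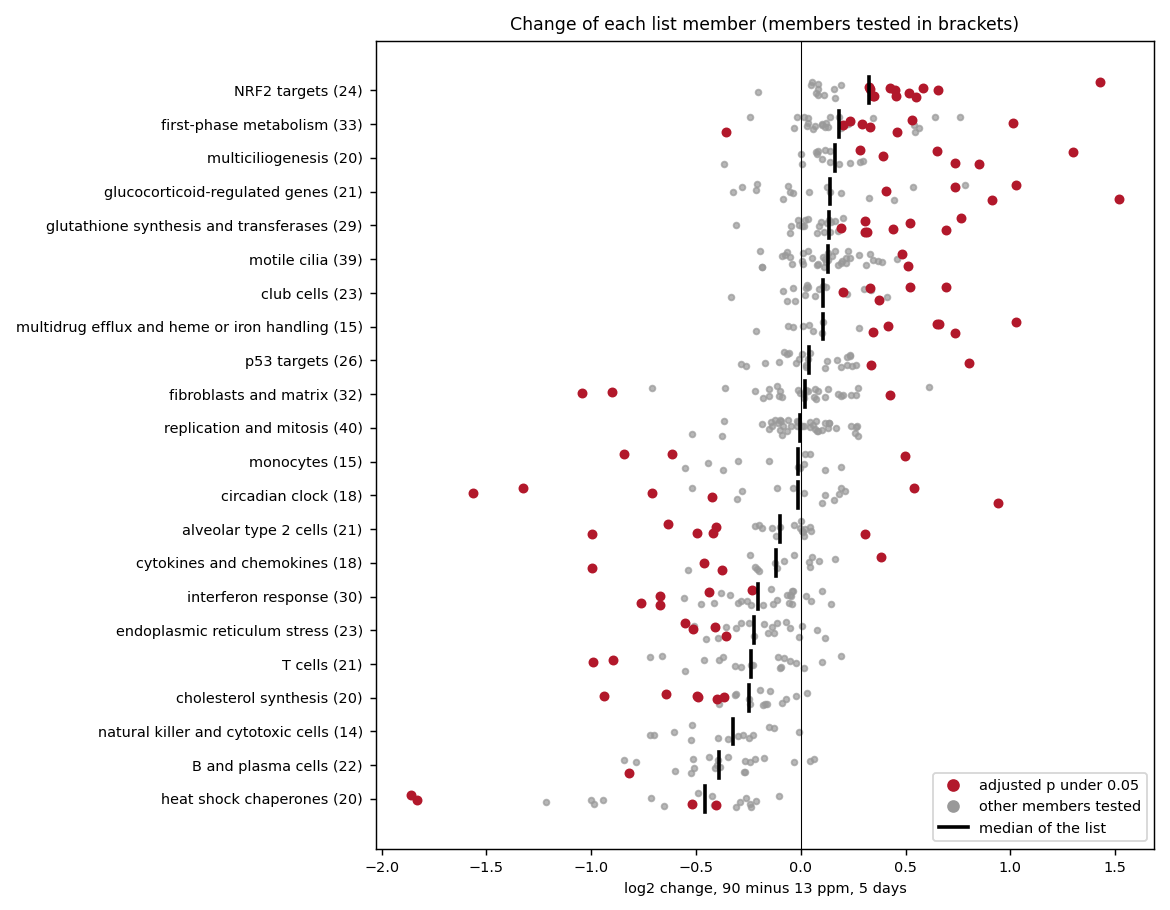
log2 change (90 minus 13 ppm after 5 days) of every tested member of 22 gene lists, those with at least 3 members past the threshold and 6 others, ordered by median; red points have an adjusted p under 0.05 and black marks are list medians. Medians run from -0.46 for heat shock chaperones to 0.33 for NRF2 targets, and members of most lists spread to both sides of 0.

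The same contrast in other mice after 15 exposure days gave 1081 called genes (7.84%), 579 higher (4.2%) and 502 lower (3.64%) at 90 ppm. Of the 660 genes called after 5 days, 619 (93.8%) had the same direction after 15 days, against 53.6% of all genes tested. In the same direction, 294 passed at both times, which is 44.5% of the 5-day calls and 27.2% of the 15-day calls, and none passed in opposite directions. Of the 5-day rises 181 (52.9%) passed again, and of the falls 113 (35.5%). The 15-day count was 2255 without animal 177, 550 without animal 158, 655 without animal 159, 717 without animal 160 and 718 without animal 180. It was 289 without the mice whose duration field conflicts with the title. The poly-A spike signal was uneven between the 15-day groups. It was 9.03 in animal 178 and 9.64 in animal 181, both at 90 ppm. In the other 90 ppm mice it was 5.54 to 6.56, and in the 13 ppm mice 5.46 to 6.62. With the spike signal as a covariate, 1097 genes were called after 15 days.

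Among the 12 largest rises 11 passed after 15 days, and among the 12 largest falls 8 did. Of the 660 genes called after 5 days, 506 had a change of smaller size after 15 days, and choosing genes by their 5-day change favours this. Some of the largest rises went the other way: Myrip changed by 2.17, Doc2b by 2.30, Fkbp5 by 2.40 and Rbfox3 by 1.5 after 15 days, each past the threshold. Hspa1b changed by -1.90 and Nr1d1 by -1.26, also past it, and Scn3a by -0.48 (adjusted p = 0.19). Only Ccna1 (0.00725% of genes) differed between the times by the test of the difference itself, with 1.26 ± 0.21 (5 days minus 15 days, adjusted p = 0.00506). In that test 1597 of the 13796 genes had an unadjusted p under 0.05, so the lack of calls does not show equal changes at both times. After 15 days Ccna1 averaged 6.36 at 90 ppm and 6.32 at 13 ppm, both below the filter limit, a difference of 0.04 ± 0.15 (adjusted p = 0.89). Ccno gave a difference between the times of 0.86 ± 0.20 (unadjusted p = 0.000111, adjusted p = 0.426). The Ccna1 call was absent with a filter at the 60th percentile and without the mice with conflicting durations.

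**Figure D5:**
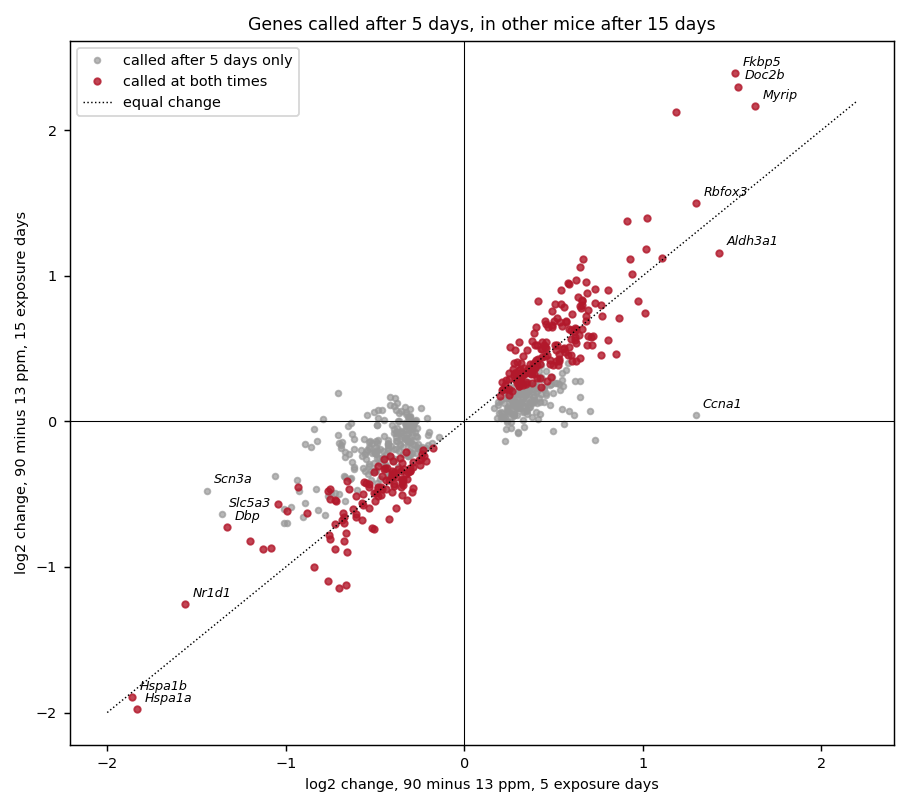
log2 change at 90 minus 13 ppm after 15 exposure days (vertical) against that after 5 days (horizontal) for the 660 genes called after 5 days; red points passed at both times, grey points after 5 days only, and the dotted line marks equal change. Most points share a sign, and 506 of the 660 changes were smaller in size after 15 days. Fkbp5, Doc2b and Myrip lie above the line, and Ccna1 lies at 0.04 on the vertical axis. The horizontal values chose the genes, which favours smaller vertical values.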

How the data were processed

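The deposited values are the authors' log2 signals per probe set of Affymetrix Mouse430_2 arrays, with a range of 3.47 to 15.3 over 45 mouse arrays. The summary and normalization methods are not given in the sources used here. Per the labels' protocols, Trizol and then RNeasy columns served to isolate RNA, and the target carried biotin. Array medians lay between 7.27 and 7.37.

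Of 45101 probe sets, 34958 with 1 gene symbol were considered, leaving out 932 with several symbols, 9211 with none and, within these, 64 controls. Those above the 40th percentile (6.67) on at least 5 arrays were kept, and a gene was read from whichever of these had the highest mean signal, giving 13796 genes. Symbols came from the platform annotation, and 34754 were found by Entrez identifier in RefSeq.

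One limma 3.58.1 fit (R 4.3.3) had a mean for each of 9 mouse groups, with moderated two-sided tests and Benjamini-Hochberg adjustment over all genes at 0.05. Precision is limited by the number of arrays, with a median SE of 0.0991 per change. Animals are separate mice by their labels. The fit was tested on simulated data. RNA quality was compared by exact permutation over 3 measures.

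The comparison, its 48 gene lists and the motifs were chosen with earlier results of these data known. The text names the 12 genes that rose most and the 12 that fell most (unnamed models left out), the 4 called members of smallest p in any list with at least 3 calls, 10 fixed genes (Cyp2e1, Cyp2f2, Ephx1, Gclc, Gclm, Nqo1, Hmox1, Scgb1a1, Mki67, Cdkn1a) and the genes that differed between the times. Other genes named beside list counts, such as Mdm2, Zbtb16 and S100a9, were chosen after their values were seen. Alternatives changed the filter, scaling, probe set choice, covariates, arrays in the fit and moderation, and left out each animal in turn. The exclusion of low-spike animals and the spike covariate were chosen after seeing the data. For 9 mice after 15 days, 3 at 90 ppm and 1 at 13 ppm, the duration field conflicts with the title, and the title was used.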

Additional observations from a re-analysis of the deposited data

Results flagged for a closer look

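In 9 of the 160 groups of 5 animals examined for the named genes, 1 animal stood apart, with a gap to its nearest group mate above 0.71 of the group's range; chance alone gives about 1 in 20. At 90 ppm, animal 165 was lowest for Il33 (0.805 of the range), Rasgrp3 (0.749) and Hspa5 (0.728), animal 167 was lowest for Cbr1 (0.758), and animal 166 was highest for Adgre4 (0.855). At 13 ppm, animal 154 was highest for Myrip (0.780), animal 149 was highest for Cyp2d22 (0.740) and lowest for Manf (0.734), and animal 153 was lowest for Scn3a (0.718). Each of these 9 genes was still past the threshold without the animal that stood apart. The change in Ccna1 at 90 against 13 ppm was larger after 5 than after 15 days by 1.26 on the log2 scale, by the test of the difference itself. Ccna1 passed the filter on low signal through the 90 ppm mice after 5 days, and its means at 13 ppm after 5 days (6.58) and at 90 and 13 ppm after 15 days (6.36 and 6.32) lie below the limit of 6.67, so the size of this difference is poorly measured and its test gives no independent support.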

How the results depend on the processing

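With the 10 compared arrays alone in the fit, 275 genes were called, 156 higher and 119 lower. Median centring gave 523 higher, a split of 61.8% higher against 51.8%, and shifted the median of all genes to 0.03. Every probe set without a filter gave 235 changes of at least 1.5-fold. Without the mice with conflicting durations, 289 genes were called after 15 days, and the difference between the times had 0 calls, as it did with a filter at the 60th percentile. Leaving out 1 animal in turn gave 379 to 733 calls, 229 to 375 rises, 150 to 358 falls and 106 to 174 changes of at least 1.5-fold after 5 days, 550 to 2255 calls after 15 days, and 1 call for the difference at every turn. Of 1886 values of named genes under alternatives, 1759 kept direction and side of the threshold, 125 kept direction and were no longer past it, 1 passed newly, and 1 reversed: the second Mt1 probe set, at -0.0295. Of 74 named called genes, 49 kept their call under every alternative that gave a value, other than another probe set; 3 of these (Ccna1, Doc2b and Hpx) gave none at the 60th percentile filter. Among other probe sets of named genes, 36 kept their side of the threshold, 15 were no longer past it and 1 reversed. The cause of these shifts was not tested. No paired analysis was possible because the animal numbers differ between the groups. Genes near the filter limit at 13 or 90 ppm, such as Doc2b, Ccna1 and Adgre4, and genes near the top of the scale, such as Scgb1a1, have changes that the signal range limits.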
